A study of Mus musculus with 12 samples.

Results

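Pld6, Sh3bp2 and Tbc1d16 are 3 of the 18194 genes measured in mouse spinal cord on 12 one-colour Affymetrix arrays. They were chosen by their measured genotype differences, called higher in Olig2cre/DA-Cat than in wild type at day 4 and called lower at day 15, and all 4 probe sets annotated to their symbols were examined, 1 each for Pld6 and Sh3bp2 and 2 for Tbc1d16. Both genotypes, Olig2cre/DA-Cat and their wild-type littermates, were sampled at days 4 and 15, which makes 4 groups of 3 biological replicates. In Olig2cre mice the Olig2 gene, active in oligodendrocytes, their precursors and motor neuron progenitors, drives Cre recombinase; DA-Cat is dominant-active β-catenin, the protein through which canonical Wnt signals reach the nucleus. No group carried Cre alone, so Cre and DA-Cat cannot be told apart in the genotype comparison. Day is labelled as a developmental stage, yet the description and protocol given with it are about lysolecithin injected into ventrolateral white matter, in adult mice; what the days are counted from is not settled by the labels, so the age of the animals is not settled either, and no strain is named.

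The 3 genes encode proteins of different pathways. Pld6 encodes mitochondrial phospholipase D (MitoPLD, the mouse counterpart of Zucchini), a protein of the outer mitochondrial membrane that is known for forming phosphatidic acid from cardiolipin, for promoting mitochondrial fusion together with mitofusins, and for its part in making piRNAs in germ cells. Sh3bp2 encodes the adaptor 3BP2, which binds Abl and Syk family kinases, phospholipase C gamma and Vav proteins and is best known from osteoclasts and other myeloid cells. Tankyrase marks 3BP2 for ubiquitination by Rnf146 and destruction, as it does for Axin, the scaffold that limits β-catenin. Tbc1d16 encodes a TBC domain protein that speeds GTP hydrolysis by Rab4, a GTPase of the early endosome that returns receptors such as the transferrin receptor to the cell surface.

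Promoter sequence was at hand for Pld6 and Sh3bp2. It is shown because DA-Cat acts through TCF and LEF factors and both genes share the opposite differences by day; each run holds the 250 bases before a transcription start, 5′ to 3′, from RefSeq on GRCm38.p6. The Pld6 run shown, on the minus strand, ends at the gene's outermost start, and a second one, before a start inside the gene, is not shown; both Sh3bp2 runs, on the plus strand, lie before starts inside the annotated span of the gene. Capitals mark E-boxes (CANNTG), the letters bound by basic helix-loop-helix factors such as Olig2.
Pld6, chr11:59787658-59787907: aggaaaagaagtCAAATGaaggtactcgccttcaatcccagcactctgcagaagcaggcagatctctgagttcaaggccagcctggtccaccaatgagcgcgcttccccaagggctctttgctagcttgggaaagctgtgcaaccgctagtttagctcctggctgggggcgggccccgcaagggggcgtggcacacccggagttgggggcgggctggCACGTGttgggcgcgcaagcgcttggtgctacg
Sh3bp2, chr5:34543115-34543364: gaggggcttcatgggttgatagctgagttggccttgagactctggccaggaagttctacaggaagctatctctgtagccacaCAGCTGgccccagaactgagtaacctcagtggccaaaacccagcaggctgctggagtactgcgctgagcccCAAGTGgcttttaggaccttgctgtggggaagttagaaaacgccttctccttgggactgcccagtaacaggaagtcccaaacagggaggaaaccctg
Sh3bp2, chr5:34549326-34549575: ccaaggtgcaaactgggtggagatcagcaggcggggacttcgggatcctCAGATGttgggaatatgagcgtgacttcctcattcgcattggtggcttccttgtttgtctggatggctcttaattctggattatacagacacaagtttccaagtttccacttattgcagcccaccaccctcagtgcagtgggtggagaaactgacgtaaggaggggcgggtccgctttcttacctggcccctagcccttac
Searched on both strands, the TCF and LEF core letters (CTTTG followed by an A and then A or T, or by a T and then A or T) occurred 0 times in each of the 3 runs and in the second Pld6 run, and 14.8% of 32851 promoter runs of this length held at least 1 of them. E-boxes occurred 2 times in the Pld6 run shown (the one nearer the start reading CACGTG), 2 times in the other Pld6 run (both CAGCTG), 2 times in the first Sh3bp2 run and 1 time in the second, while 66.2% of all promoter runs held at least 1. The Pld6 run shown held 14 CpG dinucleotides, the other Pld6 run 21, and the Sh3bp2 runs 2 and 7, beside a median of 6 over all runs. A match is only a match of letters, and its absence says only that these letters are not in the window.

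Array medians lay between 6.14 and 6.19 log2 signal, beside a median of 3.07 for the unspiked bacterial controls. By mean level Pld6 stood at the 43.7th percentile of the genes, Sh3bp2 at the 37.5th and Tbc1d16 at the 69.7th. Arrays of 1 group correlated with each other at a mean of 0.992 to 0.997. Arrays differed in skeletal muscle content and in sex-linked transcripts: the mean level of 12 muscle genes ranged from 4.95 to 10.37 over the 12 arrays, and Xist, made in females, was over 10 together with Eif2s3y, encoded on the Y chromosome, over 6 on 9 of the 12 arrays, with Xist alone high on 1 and Eif2s3y alone on 2. How many animals were pooled in a sample is not in the labels.

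At day 4 all 3 genes were higher in Olig2cre/DA-Cat, and at day 15 all 3 were lower. These are the differences by which the genes were chosen, so they are given as a description, with no test. Of all genes 3.12% were called at day 4 (1.3% higher and 1.81% lower) and 2.93% at day 15 (0.616% higher and 2.31% lower), at an adjusted p under 0.05 from limma; 0.0165% were called higher at day 4 and lower at day 15, and 0.0% the other way round. By sign alone 19.9% of all genes were higher and then lower and 17.1% lower and then higher. At day 4 18.8% of all genes had every Olig2cre/DA-Cat array above every wild-type array, at day 15 9.69% had every one below, and 0.742% had both.

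Pld6 was at 7.56, 7.43 and 7.56 log2 signal in wild type at day 4 and at 8.03, 8.16 and 8.24 in Olig2cre/DA-Cat. At day 15 it was at 6.20, 6.24 and 6.38 in wild type and at 5.99, 6.01 and 5.77 in Olig2cre/DA-Cat. Every Olig2cre/DA-Cat array was thus above every wild-type array at day 4 and below every one at day 15, with a gap between the groups of 0.47 at day 4 and 0.19 at day 15. The log2 difference was 0.63 ± 0.083 (SE, n = 3 per group) at day 4, a 1.54-fold level, and -0.35 ± 0.083 at day 15, a 0.786-fold level. Its group means were 7.52 ± 0.074 and 8.14 ± 0.10 (SD) at day 4 and 6.27 ± 0.093 and 5.92 ± 0.13 at day 15, wild type first.

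Sh3bp2 was at 6.49, 6.52 and 6.75 log2 signal in wild type at day 4 and at 7.17, 7.00 and 7.35 in Olig2cre/DA-Cat. At day 15 the wild-type arrays were at 6.55, 6.36 and 6.27 and the Olig2cre/DA-Cat arrays at 5.76, 5.43 and 5.63. The genotypes did not overlap on either day, with gaps of 0.25 and 0.50. The difference was 0.59 ± 0.12 (SE, n = 3 per group) at day 4, a 1.50-fold level, and -0.79 ± 0.12 at day 15, a 0.580-fold level. Of the 3 genes it had the most negative difference at day 15, and its means were 6.59 ± 0.14 and 7.17 ± 0.18 (SD) at day 4 and 6.39 ± 0.14 and 5.61 ± 0.17 at day 15, wild type first.

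Tbc1d16 was at 9.09, 9.01 and 9.11 log2 signal in wild type at day 4 and at 9.22, 9.44 and 9.53 in Olig2cre/DA-Cat. At day 15 it was at 8.51, 8.52 and 8.45 in wild type and at 8.14, 8.15 and 8.21 in Olig2cre/DA-Cat. The genotypes again did not overlap, with a gap of 0.11 at day 4, narrower than the SD of 0.16 among the Olig2cre/DA-Cat arrays, and of 0.25 at day 15. The difference was 0.33 ± 0.075 (SE, n = 3 per group) at day 4, a 1.26-fold level, and -0.33 ± 0.075 at day 15, a 0.796-fold level. The opposite differences were of like size, so that their mean over the days was 0.0016, beside 0.14 for Pld6 and -0.10 for Sh3bp2.

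The other Tbc1d16 probe set did not show this pattern. At day 4 the wild-type arrays were at 6.84, 6.98 and 6.62 log2 signal and the Olig2cre/DA-Cat arrays at 6.82, 6.91 and 6.83. At day 15 they were at 6.55, 6.12 and 6.51 and at 6.84, 6.55 and 6.17. The groups overlapped on both days, and the differences of 0.041 and 0.13 were both positive and smaller than the SDs of 0.18 and 0.24 in wild type. With the mean of both probe sets, Tbc1d16 differed by 0.19 at day 4 and -0.10 at day 15 and was not called on both days. The opposite pattern of Tbc1d16 thus rests on 1 of its 2 probe sets, and those of Pld6 and Sh3bp2 on their only one.

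**Figure D1:**
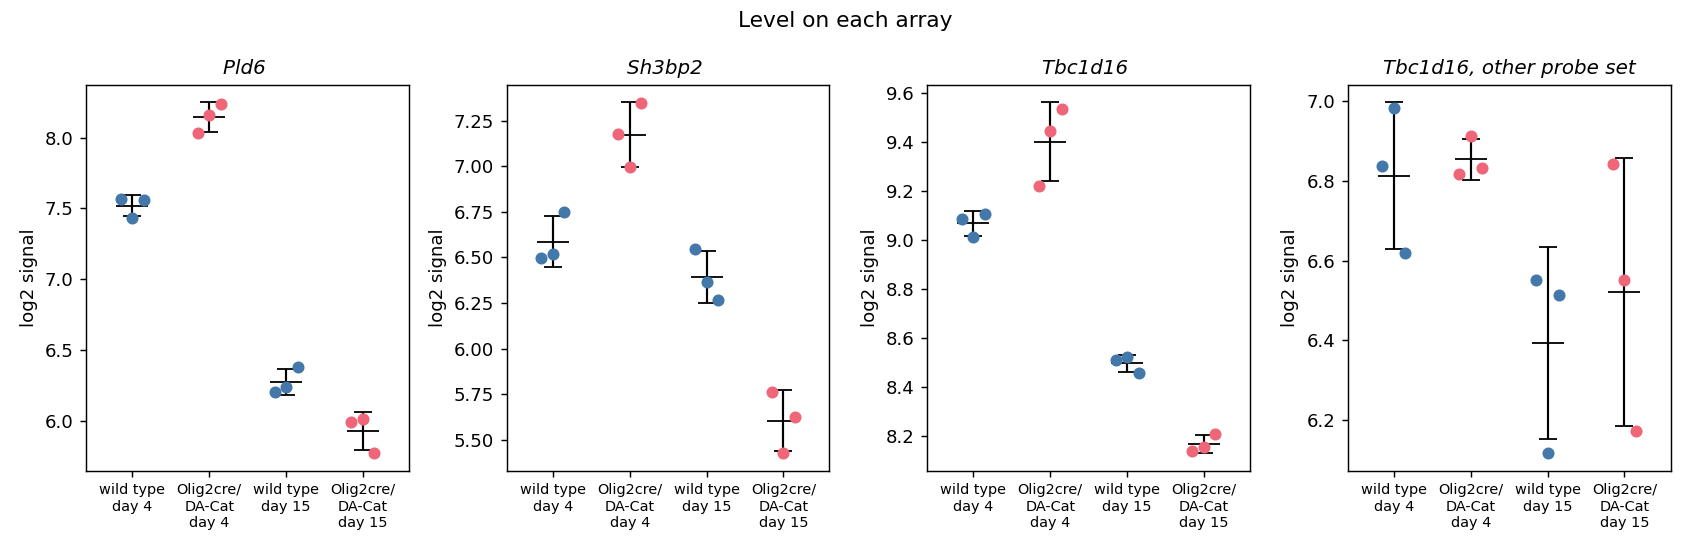
Log2 signal (vertical axis, a separate range in each panel) of Pld6, Sh3bp2 and the 2 Tbc1d16 probe sets on each of the 12 arrays, with group mean and SD as black bars; blue is wild type and red Olig2cre/DA-Cat. In the first 3 panels red lies above blue at day 4 and below it at day 15, while the other Tbc1d16 probe set overlaps on both days.

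In the probe sets used for the genes, the order of the groups was the same for the 3 genes. The day 4 Olig2cre/DA-Cat arrays were highest, then the wild-type arrays of day 4 and of day 15, and the day 15 Olig2cre/DA-Cat arrays were lowest. For Pld6 and Tbc1d16 none of these neighbours overlapped, whereas the wild-type groups of Sh3bp2 did, with 6.49 as the lowest value at day 4 and 6.55 as the highest at day 15. Of all genes 9.57%, or 1741, had their group means in this order, among 3624 with the genotype signs of the choice. Without overlap 55 genes, or 0.302%, had it, among 135 with both separations of the genotypes. The mirror order was held without overlap by 10 genes, or 0.055%. The choice of the genes fixes the order of the genotypes within each day, and not the order of the days. In the other Tbc1d16 probe set the order differed: the day 15 wild-type mean was lowest, at 6.39 beside 6.52 in Olig2cre/DA-Cat.

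The fall between the days, averaged over the genotypes, did not enter the choice, since this contrast is orthogonal to both genotype contrasts. All 3 genes fell from day 4 to day 15, beside 29.6% of all genes called lower and 26.0% called higher (5382 lower and 4723 higher; 4464 and 6031 with each array centred on its median). Pld6 fell by 1.73 log2 (95% interval -1.86 to -1.60, limma adjusted p = 2.86e-10), a 3.32-fold change, and only 0.495% of genes had a more negative value. Sh3bp2 fell by 0.88 (-1.06 to -0.70, limma adjusted p = 1.2e-06) or 1.84-fold, and Tbc1d16 by 0.90 (-1.02 to -0.79, limma adjusted p = 2e-08) or 1.87-fold; 4.59% and 4.38% of genes had more negative values. In the probe sets used for the genes, all 3 arrays of day 15 lay below all 3 of day 4 in either genotype for Pld6 and Tbc1d16. For Sh3bp2 they did so in Olig2cre/DA-Cat. The other Tbc1d16 probe set fell by 0.42 in wild type, without overlap, and by 0.33 in Olig2cre/DA-Cat, where the days overlapped. With 55.5% of the genes called between the days, a call by itself does not set these genes apart; the estimate of spread is also shared with the contrasts that chose them.

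Within each genotype the sizes differed as the choice requires, and these values are a description. Pld6 changed by -1.25 in wild type, to 42.2% of its day 4 signal, and by -2.22 in Olig2cre/DA-Cat, to 21.5%. Tbc1d16 changed by -0.57 in wild type, to 67.3%, and by -1.23 in Olig2cre/DA-Cat, to 42.5%. Sh3bp2 changed by -0.19 in wild type, to 87.4%, and by -1.57 in Olig2cre/DA-Cat, to 33.8%. In the probe sets used, the groups of the 2 days overlapped for Sh3bp2 in wild type and for none of the other pairs. In bulk tissue, fewer cells of a type and less RNA per cell cannot be told apart.

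The choice had a threshold on each day. Just inside it stood Pld6, with an adjusted p of 0.0454 from limma at day 15 beside 0.00107 at day 4. Tbc1d16 had 0.0356 at day 4 and 0.0361 at day 15, and Sh3bp2 0.018 and 0.00321. Just outside stood the chromatin protein gene Asxl3 (0.29 and -0.26 log2, larger limma adjusted p 0.0633), the metalloprotease gene Adamts20 (0.28 and -0.27, 0.066) and Kctd13, which encodes an adaptor of a ubiquitin ligase (0.28 and -0.40, 0.0762). These genes had smaller differences at day 4 than the members, and Kctd13 had a larger one at day 15 than Pld6 or Tbc1d16.

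Which genes met the choice depended on single arrays and settings. Over 12 fits that each left out 1 array, between 0 and 3 genes were called in opposite directions: none without wild type day 4 replicate 1, wild type day 4 replicate 2 or Olig2cre/DA-Cat day 4 replicate 3, and 1 without any 1 of the wild type day 15 replicates, wild type day 4 replicate 3, Olig2cre/DA-Cat day 15 replicate 1 or Olig2cre/DA-Cat day 4 replicate 2. Sh3bp2 was called on both days in 8 of these 12 fits, Pld6 in 2 and Tbc1d16 in 1. The signs of the differences could not change in these fits, since the genotypes did not overlap on either day. Leaving out an array of the other day does not move a difference at all. At day 4 the differences lay between 0.58 and 0.68 for Pld6, 0.50 and 0.67 for Sh3bp2 and 0.26 and 0.42 for Tbc1d16. At day 15 they lay between -0.39 and -0.27, -0.87 and -0.70, and -0.35 and -0.31.

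**Figure D2:**
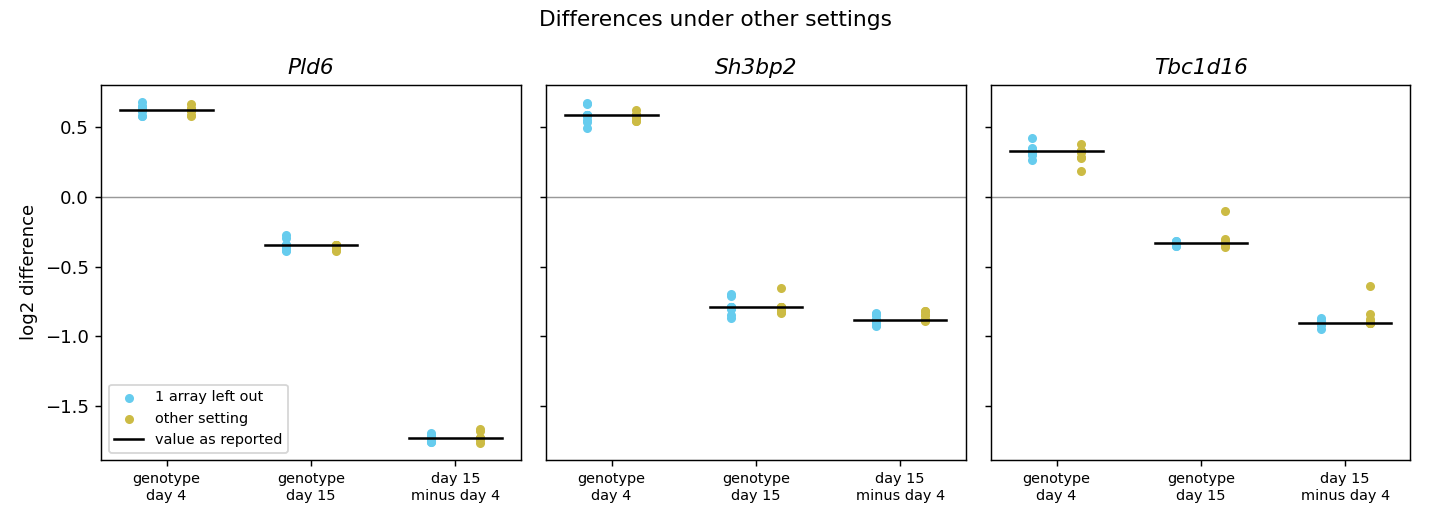
Log2 differences (vertical axis) of Pld6, Sh3bp2 and Tbc1d16 between genotypes at day 4 and day 15 and between days averaged over genotypes; black bars are the values as reported, blue points fits without 1 array and yellow points other settings. No point crosses 0, which leaving out 1 array could not bring about for the genotype differences. The yellow points of Tbc1d16 nearest to 0, at 0.19, -0.10 and -0.64, are those with both of its probe sets averaged.

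Across the 12 arrays the 3 genes varied together, which follows in part from their choice. Pearson's r was 0.98 between Pld6 and Tbc1d16, 0.92 between Sh3bp2 and Tbc1d16 and 0.88 between Pld6 and Sh3bp2. With each day's mean subtracted it was 0.88, 0.89 and 0.80. These values are a description over 12 arrays that share 4 groups.

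Genes with the most similar levels over the 12 arrays were found by Pearson's r, from which nothing follows on function. For Pld6 they were Alg10b, a glucosyltransferase gene of N-glycan assembly (0.99), Glis3, Usp22, Snx8 and Gpsm1 (each 0.99). For Sh3bp2 they were Cep57l1 (0.96), Baz2b (0.96), Rab40c (0.95), Slc39a3, a zinc transporter gene (0.95), and Dop1b (0.95). For Tbc1d16 they were the transcription factor gene Dach1 (0.99), Bach1, Tmem232, Pld6 and Ehmt1 (each 0.98). Their genotype differences had the same signs as those of the members, which follows in part from how they were found. Most were smaller: Dach1 differed by 0.23 at day 4 and -0.32 at day 15, Tmem232 by 0.36 and -0.20, and Alg10b by 0.30 and -0.11. After the mean of each day was subtracted, the nearest genes were Cwf19l1 (0.93), Cstf3 (0.91) and Cntln (0.90) for Pld6, Kctd13 (0.96), Ilvbl (0.95) and Dach1 (0.94) for Sh3bp2, and Nbas (0.94), Map3k2 (0.93) and Rab40c (0.93) for Tbc1d16. Dach1 and Rab40c were thus near to both Sh3bp2 and Tbc1d16.

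The pathways of the 3 genes were followed through 7 lists. Only the 3 members, 0.0165% of all genes, were called higher and then lower, and 0.0% were called the other way round. No list gene could thus be called in opposite directions. For Pld6, 0 of 18 piRNA pathway genes were called between the genotypes on either day at the adjusted level, beside 3.12% of all genes at day 4 and 2.93% at day 15, with medians of -0.036 and -0.016 against 0.029 and 0.017 over all genes. Between the days 2 of them rose and 2 fell, where 26.0% of all genes rose and 29.6% fell: Tdrd5 by 0.32 and Tdrd7 by 0.15 upwards, and the Piwi gene Piwil2 by 0.32 and the acyltransferase gene Gpat2 by 0.34 downwards, the last 2 from group means under 5. Mov10l1, a helicase of piRNA processing, was near the low end at day 4, at 5.14 ± 0.065 (SD, n = 3) in wild type against 4.98 ± 0.15.

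Of 20 genes of mitochondrial fusion, fission and cardiolipin synthesis, 0 were called between the genotypes on either day (3.12% and 2.93% of all genes were), with medians of 0.038 and 0.050. The mitofusins, partners of Pld6 in fusion, differed by -0.024 (Mfn1) and 0.079 (Mfn2) at day 4 and by -0.025 and 0.092 at day 15. Between the days 9 of the 20 rose (26.0% of all genes did), among them Fis1 by 0.46, Mfn1 by 0.42 and Ptpmt1, a phosphatase of cardiolipin synthesis, by 0.38, and 2 fell (29.6% of all genes did), with Phb2 at -0.48.

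Of 25 phospholipase D and phosphatidic acid enzymes, 3 fell and 0 rose at day 4 (1.81% and 1.3% of all genes) and 1 fell and 0 rose at day 15 (2.31% and 0.616%). Pld1, a phospholipase D of inner membranes, fell by 0.51 ± 0.096 (SE, limma adjusted p = 0.0133) at day 4 and differed by -0.38 at day 15 (limma adjusted p = 0.0566). The acyltransferase gene Agpat4 fell on both days, by 0.40 ± 0.076 (SE, limma adjusted p = 0.0145) and 0.55 ± 0.076 (limma adjusted p = 0.00237), and the phosphatase gene Plpp2 fell by 0.39 at day 4. Between the days 11 of the 25 rose and 9 fell (26.0% and 29.6% of all genes); Agpat4 rose by 1.01, Plpp2 by 0.75 and Dgka by 0.46, and Plpp3 fell by 0.46. The list medians were 0.040 at day 4 and 0.043 at day 15. The signs of Pld6 on the 2 days were set by its choice, so nothing follows from comparing them with this list.

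For Sh3bp2, 1 of 25 genes of its binding partners and of related kinases and adaptors was called at day 4 and 1 at day 15, both lower (1.81% and 2.31% of all genes were). Plcg2, a phospholipase C gamma, fell by 0.44 ± 0.066 (SE, limma adjusted p = 0.00301) at day 4, from 7.50 ± 0.079 (SD) to 7.07 ± 0.096. The kinase gene Abl1 fell by 0.48 ± 0.070 (SE, limma adjusted p = 0.0029) at day 15, from 9.13 ± 0.029 (SD) to 8.64 ± 0.14, and differed by -0.25 at day 4 (limma adjusted p = 0.0783). Syk, a kinase that binds 3BP2, differed by 0.15 and -0.076 and was not called. Between the days 6 rose and 7 fell (26.0% and 29.6% of all genes), among the latter Vav2 by 0.70, Src by 0.46, Plcg1 by 0.37 and Abl2 by 0.36.

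In the tankyrase list of 8 genes only Axin2 was called between the genotypes, and it was higher on both days (1.3% of all genes were at day 4 and 0.616% at day 15). Axin2, a Wnt feedback gene and scaffold of β-catenin destruction, went from 7.85 ± 0.10 (SD) to 8.90 ± 0.085 at day 4 and from 7.35 ± 0.14 to 7.87 ± 0.085 at day 15, rises of 1.05 and 0.51 (SE 0.084 each, limma adjusted p = 1.16e-05 and 0.0057). Tnks, a tankyrase gene, differed by 0.11 and -0.095, Tnks2 by -0.011 and -0.23, and Rnf146 by 0.0036 and 0.011, none of them called. Axin2 was thus positive on both days, whereas the signs of Sh3bp2, positive at day 4 and negative at day 15, were set by its choice.

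For Tbc1d16, of 39 other TBC domain genes 1 rose and 1 fell at day 4 (1.3% and 1.81% of all genes), and 1 rose and 3 fell at day 15 (0.616% and 2.31%). Tbc1d30 rose by 0.27 (limma adjusted p = 0.0486) at day 4, and Tbc1d15, which acts on Rab7, fell by 0.28 (limma adjusted p = 0.0219). At day 15 Tbc1d15 fell by 0.34, Tbc1d14 by 0.40 and Usp6nl by 0.33, and Evi5 rose by 0.27 (limma adjusted p between 0.00673 and 0.0449). Between the days 11 rose and 14 fell (26.0% and 29.6% of all genes); Tbc1d8b rose by 1.03, Tbc1d9b by 0.98 and Tbc1d15 by 0.65, and Sgsm2 fell by 0.80.

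Of 30 endosomal Rab and recycling genes, 0 were called at day 4 (3.12% of all genes were), and at day 15, where 2.31% of all genes fell, Ehd1, which shapes recycling tubules, and Rab31 fell by 0.34 (limma adjusted p = 0.0175) and 0.38 (limma adjusted p = 0.0434). The Rab4 genes on which the protein of Tbc1d16 acts differed by -0.089 (Rab4a) and -0.068 (Rab4b) at day 4 and by -0.0013 and 0.054 at day 15, none of them called. Tfrc, the transferrin receptor gene, differed by -0.21 and -0.0605 and was not called either. Between the days 10 of the 30 rose and 6 fell (26.0% and 29.6% of all genes): Tfrc and Rab4b rose by 0.80 each, Rab31 by 0.69 and Ehd3 by 0.50, while Tbc1d16 fell by 0.90.

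**Figure D3:**
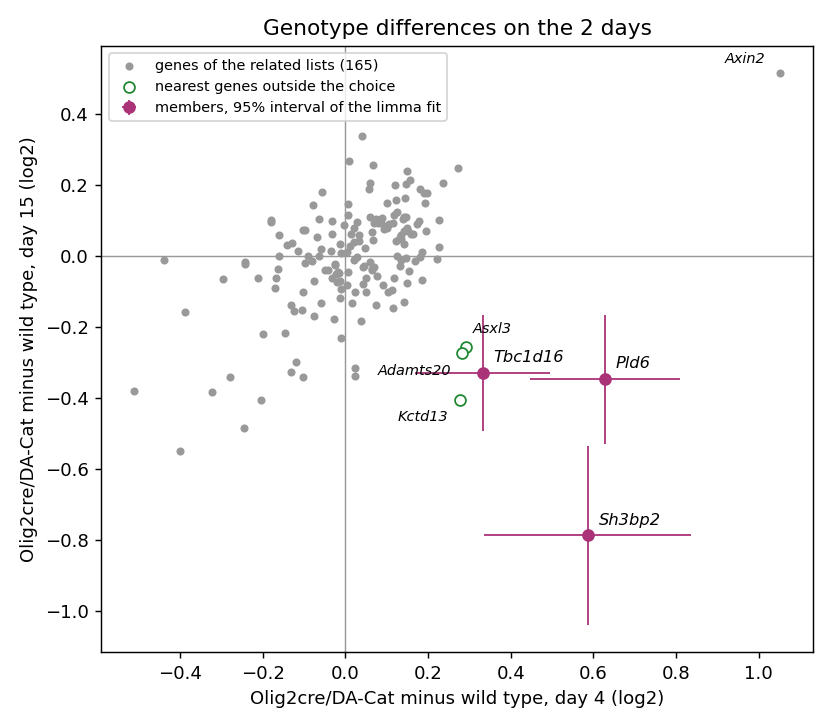
Olig2cre/DA-Cat minus wild type in log2 at day 4 (horizontal axis) and day 15 (vertical axis) for Pld6, Sh3bp2 and Tbc1d16 with 95% intervals, the 3 nearest genes outside the choice and 165 genes of the related lists. The members, which were chosen for these values, lie at lower right, and Axin2, at 1.05 and 0.51, at upper right.

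Marker levels of several cell types moved with genotype or day. The mean level of 13 oligodendrocyte and myelin genes lay between 10.43 and 10.67 in wild type and between 8.34 and 8.54 in Olig2cre/DA-Cat at day 4. Of the 13 genes 12 were called lower (1.81% of all genes were). At day 15 the mean lay between 12.52 and 12.61 and between 11.78 and 12.12, with 10 called lower (2.31% of all genes were). The myelin list was thus lower in Olig2cre/DA-Cat on both days and rose between them. The 3 genes were chosen as higher at day 4 and lower at day 15, and they fell between the days. The mean of 12 Wnt feedback genes was higher on both days, 7.64 to 7.89 against 6.64 to 6.73 at day 4 and 7.17 to 7.20 against 6.49 to 6.62 at day 15. The mean of 10 neuron genes was also higher in Olig2cre/DA-Cat. It was 12.38 to 12.45 against 12.27 to 12.36 at day 4, and 12.19 to 12.34 against 12.12 to 12.17 at day 15. Of these genes 1 was called higher at day 4 and 0 at day 15 (1.3% and 0.616% of all genes were). The mean of 9 astrocyte genes was 11.50 to 11.67 against 11.68 to 11.80 at day 4. Of the 9 genes 2 were called lower at day 4 and 0 at day 15 (1.81% and 2.31% of all genes were). The mean of 10 precursor genes was lower in Olig2cre/DA-Cat at day 4 (9.15 to 9.19 against 9.74 to 9.80). Of these 10 genes 6 were called lower at day 4 and 2 at day 15 (1.81% and 2.31% of all genes were). Pdgfra (-0.24), Cspg4 (-0.18), Ptprz1 (-0.16) and Lhfpl3 (-0.30) were not called at day 4.

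Cells from outside the cord also differed between arrays. The muscle list lay between 4.95 and 7.28 in wild type and between 5.08 and 10.37 in Olig2cre/DA-Cat at day 15. Its median difference was 1.95 log2, with 0 of 12 genes called (2.93% of all genes were). With the muscle level as a covariate the day 15 differences were -0.35 for Pld6, -0.83 for Sh3bp2 and -0.34 for Tbc1d16, beside -0.35, -0.79 and -0.33 without it. Without Olig2cre/DA-Cat day 15 replicate 1, the array with most muscle signal, they were -0.38, -0.87 and -0.31. In both fits Sh3bp2 alone of the 3 genes was still called on both days. Muscle as a cause of the differences was not tested. The mean of 4 Schwann cell genes at day 15 lay between 7.68 and 8.06 in Olig2cre/DA-Cat and between 6.86 and 7.73 in wild type. Of the 4 genes 1 was called higher (0.616% of all genes were). The mean of 9 meningeal and fibroblast genes lay between 9.59 and 10.21 and between 8.96 and 10.06, with 0 called (2.93% of all genes were). The part of these 2 lists in the results was not tested. The microglia and macrophage list, cells in which Sh3bp2 is known to act, differed by a median of 0.14 at day 4 and -0.087 at day 15. On either day 0 of its 12 genes were called (3.12% and 2.93% of all genes were). All 12 rose between the days (26.0% of all genes did).

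Eif2s3y lay between 3.29 and 7.94 in Olig2cre/DA-Cat and between 7.48 and 8.82 in wild type at day 15, and between 7.17 and 8.56 against 6.65 and 7.68 at day 4. With its level as a covariate the differences at day 15 were -0.39 for Pld6, -0.65 for Sh3bp2 and -0.30 for Tbc1d16, and at day 4 they were 0.64, 0.55 and 0.32. The signal of 3′ over 5′ probe sets, a sign of RNA quality, lay between 0.85 and 1.14 log2 for β-actin and between -0.063 and 0.070 for Gapdh over all arrays; for β-actin it was 1.04 to 1.14 in wild type and 0.85 to 1.02 in Olig2cre/DA-Cat at day 15, and its part was not tested.

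**Figure D4:**
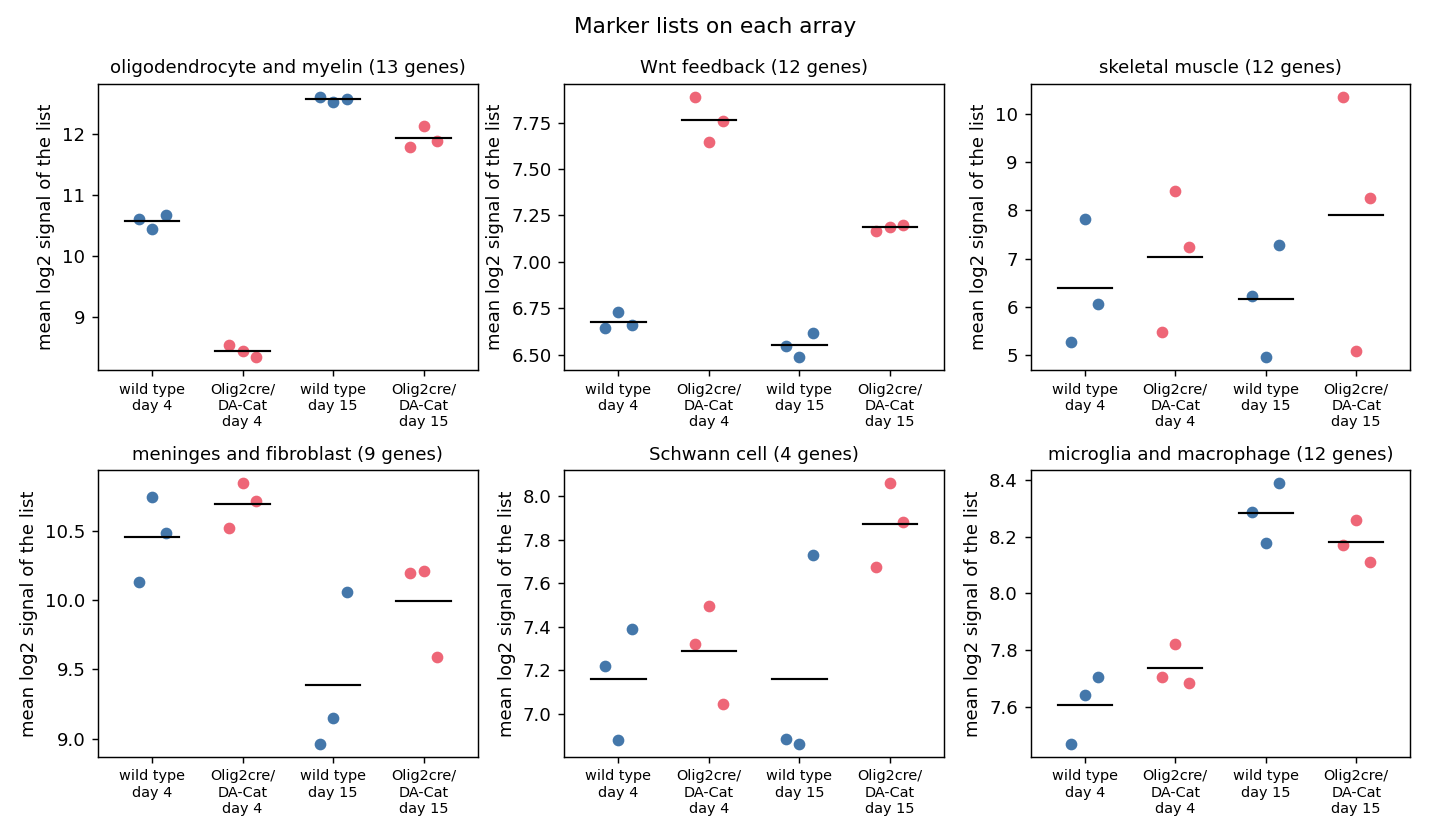
Mean log2 signal (vertical axis, a separate range in each panel) of 6 marker lists on each array, with group means as black lines; blue is wild type and red Olig2cre/DA-Cat. Myelin genes are lower and Wnt feedback genes higher in red on both days, and the muscle list of Olig2cre/DA-Cat at day 15 spans 5.08 to 10.37.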

How the data were processed

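RNA from spinal cord was hybridised to 12 arrays and labelled with the Affymetrix 3′ IVT procedure per the labels' protocols. The authors deposited a log2 signal for each probe set; the log2 scale was judged from the values. Their background correction, probe summary and normalization are not given in the sources used here. No scan date or batch was used here. The annotation gave 1 symbol for 34958 of 45101 probe sets, several for 932 and none for 9211; 34754 matched the RefSeq gene table (GRCm38.p6) by Entrez identifier. The probe set with the highest mean was kept for each of 18194 genes, with no brightness filter.

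A linear model with a mean for each group was fitted to all arrays (limma 3.58.1, R 4.3.3; lmFit, contrasts.fit and eBayes with 8 residual and 3.96 prior degrees of freedom). P-values were two-sided, Benjamini-Hochberg adjusted across the 18194 genes and called under 0.05; adjusted p-values in all parts come from this fit. Groups were taken from the sample titles. The number of arrays limits the precision, and p-values measure the spread between the samples, whose separate origin the labels state only as biological replicates. Members and gene lists were chosen with earlier results of these data known. Of the 7 related lists 176 entries were sought; those without a named probe set were not analysed here. Genes named from them were up to 4 called genes with the smallest p per contrast; clone names were passed over. Also named were the 3 genes nearest to the choice and, for each member, the 5 genes with the highest Pearson r over the arrays and the 3 with the highest after each day's mean was subtracted. Mov10l1, Mfn1, Mfn2, Syk, Tnks, Tnks2, Rnf146, Rab4a, Rab4b and Tfrc were added for their function, after values were seen. The model was also run on simulated data with known changes, drawn with the gene means and spreads of these arrays. Alternatives are given in the closing section.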

Additional observations from a re-analysis of the deposited data

How the results depend on the processing

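Other settings were tried for the 3 contrasts, the count of genes called in opposite directions and each difference of the 3 genes. No difference of Pld6, Sh3bp2 or Tbc1d16 changed sign in any of them, which is in part by construction. Dropping dim genes, other eBayes settings, the replicate blocks, fits of 1 day alone and leaving out an array of the other day cannot move a genotype difference. Leaving out 1 array could not reverse its sign. The fall between days passed the threshold in all 21 fits that gave a value for Pld6 and Sh3bp2 and all 22 for Tbc1d16, with a largest limma adjusted p of 7.21e-06. Averaging both Tbc1d16 probe sets gave 0.19 at day 4 and -0.10 at day 15, and with 1 array left out its day 4 difference lay between 0.26 and 0.42. The count of 3 opposite genes became 6 without the dimmest 30% of genes (with Asxl3, Adamts20 and Kctd13), 7 without the dimmest 50%, which removes Pld6 and Sh3bp2, and 5 with array weights; with 1 array left out it lay between 0 and 3. Quantile normalization left Pld6 and Sh3bp2. Centring each array on its median left Pld6 and Sh3bp2 beside a clone-named gene, so Tbc1d16 was lost though the count stayed at 3. The muscle covariate left Sh3bp2 beside a clone-named gene, and the Eif2s3y covariate left Sh3bp2 of the members. The 567 genes called at day 4 became 853 when the dimmest 30% were dropped and 1009 when 50% were, 2164 with array weights, and 260 to 752 with 1 array left out; with quantile normalization 129 were higher and 385 lower, against 237 and 330. The 533 genes called at day 15 became 828 without the dimmest 50%, 318 with the muscle covariate, 930 with the Eif2s3y covariate, 136 from the day 15 arrays alone, and 292 to 935 with 1 array left out. The causes were not tested, other than fewer genes or arrays in the fit by construction.

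The labels do not say that replicate numbers pair the arrays. The deviations of same-numbered arrays from their group means correlated positively in all 6 pairs within a day (0.015 to 0.30, 4 of them over 0.1), and between -0.34 and 0.13 in 12 pairs across days; differently numbered pairs within a day lay between -0.31 and 0.079. An array's best match in the other group of its day had its own number for 9 of 12 arrays (4 by chance), and over all other groups in 16 of 36 cases (12 by chance). Since 2 of the 6 pairs within a day were not over 0.1, the numbers were not taken as pairs. With the replicate number as a block, 604 genes were called at day 4, 501 at day 15 and 10186 between the days, and 3 genes in opposite directions, Sh3bp2, Tbc1d16 and a clone-named gene, without Pld6. With a replicate block within each day, chosen after seeing the data, 400 genes were called at day 4 and 360 at day 15, and 2 in opposite directions, Sh3bp2 and a clone-named gene. In both fits the differences of the 3 genes were as reported by construction, since each replicate number occurs once in every group.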
